A study of Mus musculus with 9 samples.

Results

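The numbered zinc finger genes of the mouse carry symbols made of Zfp and a number, and most of them encode DNA-binding proteins with an array of C2H2 fingers, each a loop held by a zinc ion. The members described here were chosen by their brightness: probe sets naming 1 gene were kept, each gene was represented by its probe set with the highest mean over the 9 arrays, and a gene was a member where its mean over the 3 saline arrays was at least 7 on the log2 scale. This gave 128 members out of 304 numbered Zfp genes measured, among 18193 genes in all, with 8505 other genes above the same saline minimum. Zfp36 is outside the rule because its protein, an mRNA-binding regulator of cytokine messages, has fingers of another type. Arrays came from bone marrow derived macrophages of C57BL6 mice aged 6 to 12 weeks, cultured from marrow with L929 conditioned medium. On day 6 in vitro every culture, the saline one included, was primed for 3 h with LPS (lipopolysaccharide, an endotoxin that activates macrophages) at 33 ng/mL. Cells were then given for 6 h trimethyltin hydroxide (TMT, 1.25 µM), triethyltin bromide (TET, 10 µM) or sterile saline, with 3 biological replicates in each group. TMT carries methyl groups on tin and TET carries ethyl groups, and because the doses differ, a difference between them is that of the compounds at these doses. No group without LPS was analysed here, so all values describe primed cells.

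Many C2H2 proteins of mammals carry a KRAB domain, which binds the corepressor TRIM28 (also called KAP1). TRIM28 in turn brings the histone methyltransferase SETDB1 and the heterochromatin proteins to the bound site, and such complexes silence retroelements and protect imprinted genes. Other numbered Zfp proteins are promoter activators, partners of corepressor complexes, ubiquitin or SUMO ligases, or RNA-binding and ribosome-assembly factors, so the symbol names a fold and not a pathway.

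Values are log2 array signals, differences are log2 fold changes, and "passed" means an adjusted p under 0.05 in limma, with Benjamini-Hochberg adjustment over 18193 genes. The macrophage identity of the cultures was borne by 8 of 8 listed macrophage markers, whose group means ran from 8.70 to 14.2 under TMT, 9.04 to 14.0 under TET and 9.25 to 14.3 in saline. T cell, B cell, erythroid, dendritic and mast cell markers had group means of at most 6.23. The 4 measured markers of neutrophils and their precursors had group means from 4.97 to 10.8 under TMT, 5.14 to 10.0 under TET and 4.91 to 10.9 in saline, and the 3 stromal markers reached 7.33, 7.94 and 7.32. The summed stromal level was 18.9 to 20.6 under TMT, 20.9 to 22.5 under TET and 19.5 to 20.5 in saline, and the summed neutrophil level was 29.4 to 31.2, 30.1 to 30.6 and 31.6 to 32.4. Of the neutrophil markers, S100a9 was −1.70 under TMT and −1.66 under TET relative to saline. The others differed less: S100a8 gave 0.45 under TMT and −0.33 under TET, Elane 0.06 and 0.23, and Mpo −0.60 and −0.03. The summed level of the 3 T cell markers was 14.0 to 14.4 under TMT, 15.4 to 16.1 under TET and 14.4 to 15.0 in saline. For the 2 measured B cell markers it was 9.80 to 10.04, 10.98 to 11.40 and 10.04 to 10.23, and for the 2 measured erythroid markers 9.77 to 9.80, 10.5 to 11.1 and 9.41 to 9.77. The saline means of the T cell, B cell and erythroid markers were all under 7. Of the 9384 genes under that level that are not numbered Zfp genes, 34.2% were higher under TET than in saline, with a median difference of 0.22. The part of these cell types in the results was not tested. In these bulk samples fewer cells of a type and less RNA per cell cannot be told apart. The interquartile range over all genes was 4.32 to 4.37 on TMT arrays, 3.83 to 3.93 on TET arrays and 4.25 to 4.33 on saline arrays, and its part in the TET results was not tested.

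As a group, the members were dimmer than the other genes above the minimum, with a median saline mean of 8.21 against 9.50. Their saline means ran from 7.01 to 12.5. Just inside the minimum lay Zfp646 (7.01), Zfp944 (7.02) and Zfp626 (7.02), and just outside it lay Zfp934 (6.998), Zfp275 (6.98) and Zfp688 (6.98). Because the saline arrays chose the members and also stand in both comparisons with saline, a gene above the minimum through high saline values by accident leans towards a fall. The difference of TET from TMT itself holds no saline value. Its calls still depend on saline, through the choice of members and probe sets and the spread estimated over all 9 arrays. Of the 128 members, 25 rest on a probe set whose suffix marks possible binding to related transcripts, which matters in a family with many near copies.

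The promoters of the members with the largest change each way in the comparisons with saline are shown for context, from RefSeq on GRCm38.p6 as windows around the start of the gene, 5′ to 3′ along the strand of the gene. Capitals mark matches on either strand to the motifs listed after them. Zfp949, at chr9:88547770-88548069 on the plus strand, and Zfp503, at chr14:21989552-21989851 on the minus strand, had the largest fall and the largest rise under TMT. Zfp217, at chr2:170142626-170142925 on the minus strand, and Zfp655, at chr5:145231492-145231791 on the plus strand, had the largest fall and the largest rise under TET.
Zfp949: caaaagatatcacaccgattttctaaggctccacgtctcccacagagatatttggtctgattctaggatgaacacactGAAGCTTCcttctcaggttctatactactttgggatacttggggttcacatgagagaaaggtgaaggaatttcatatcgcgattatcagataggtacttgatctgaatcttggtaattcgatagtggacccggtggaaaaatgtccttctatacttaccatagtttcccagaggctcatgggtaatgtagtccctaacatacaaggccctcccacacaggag
Zfp503: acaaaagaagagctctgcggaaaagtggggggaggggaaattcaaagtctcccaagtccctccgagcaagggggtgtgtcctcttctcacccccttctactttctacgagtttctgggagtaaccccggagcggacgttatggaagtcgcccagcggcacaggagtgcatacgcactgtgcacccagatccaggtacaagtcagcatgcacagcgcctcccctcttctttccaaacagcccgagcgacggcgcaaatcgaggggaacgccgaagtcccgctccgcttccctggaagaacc
Zfp217: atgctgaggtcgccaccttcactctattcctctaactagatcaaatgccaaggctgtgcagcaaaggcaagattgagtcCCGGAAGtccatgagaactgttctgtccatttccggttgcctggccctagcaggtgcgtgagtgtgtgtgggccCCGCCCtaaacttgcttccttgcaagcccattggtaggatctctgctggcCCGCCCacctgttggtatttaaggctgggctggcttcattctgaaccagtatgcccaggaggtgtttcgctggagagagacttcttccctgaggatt
Zfp655: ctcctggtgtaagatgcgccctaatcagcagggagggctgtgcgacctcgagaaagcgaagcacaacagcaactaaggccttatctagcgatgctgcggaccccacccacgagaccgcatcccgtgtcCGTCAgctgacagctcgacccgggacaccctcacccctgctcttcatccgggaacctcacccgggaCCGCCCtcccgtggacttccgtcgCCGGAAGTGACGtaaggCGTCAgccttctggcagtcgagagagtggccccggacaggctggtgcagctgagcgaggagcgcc
The window of Zfp949 holds 1 heat shock element (GAANNTTC), and that of Zfp503 holds no match to any of the motifs searched. The window of Zfp217 holds 2 GC boxes (GGGCGG) and 1 ETS-type site (CCGGAAG). That of Zfp655 holds 1 GC box, 3 copies of the core of the cAMP response element (TGACG) and 1 ETS-type site, which adjoins one of these copies.

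RefSeq promoters were found for 105 of the 128 members and for 14368 of all genes tested. A GC box was present in 54.3% of member promoters and in 54.1% of all promoters. The core TGACG was present in 32.4% and 27.2%, and the full element TGACGTCA, which contains it, in 1.90% and 2.69%. The ETS-type site was present in 19.0% of member promoters and 13.8% of all, the NRF1-type site GCATGCGC in 6.67% and 4.29%, and the YY1-type site AAGATGGC in 6.67% and 3.71%. For the E-box CACGTG the shares were 5.71% and 9.04%, and for TATAAA 7.62% and 9.86%. The heat shock element was present in 7.62% and 6.31%, and the NF-kB site GGGNNTTCC in 9.52% and 6.77%. Median GC content was 55.7% in member promoters and 58.7% in all, and the median ratio of observed to expected CpG was 0.72 and 0.67. These are matches of letters and not binding sites.

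TMT against saline asked which mRNAs of primed macrophages differ after this organotin. More numbered Zfp genes were higher than lower after TMT: 39 of 128 members rose, 15 fell and 74 did not pass. That is 30.5% higher and 11.7% lower. Over all 18193 genes 14.3% were higher and 13.4% lower, and among the other genes above the minimum 22.4% were higher and 24.4% lower. The median difference was 0.22 over the members (quartiles −0.08 and 0.51) and 0.00 over the other genes. Reweighted to the spread of the members over brightness, the other genes gave 25.2% higher, 20.7% lower and a median of 0.05. Of the changes, 10 rises and 2 falls were at least 2-fold (7.81% and 1.56% of members, against 5.43% and 7.65% of the other genes above the minimum). In 88 of the 128 members (68.8%) the difference was above 0, against 50.0% of the other genes. In all 54 members that passed, the 3 TMT arrays lay outside the range of the 3 saline arrays, as they did in 99.8% of the other genes above the minimum that passed. Passed or not, the groups did not overlap in 64.1% of members and 67.5% of the other genes.

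The excess of rises over the other genes depended on which array was left out. Without saline replicate 1, 22 members rose, or 17.2% against 17.7% of the other genes above the minimum, and without TMT replicate 2, 24 rose, or 18.8% against 21.2%, so that in both fits the share was below that of the other genes. Without TMT replicate 1, 26 rose, or 20.3% against 18.1%. Without saline replicate 2 the shares were 26.6% and 18.7%, and without saline replicate 3 they were 21.1% and 17.6%. Without TMT replicate 3 they were 27.3% and 19.6%. Without TET replicate 1, 2 or 3 they were 34.4%, 29.7% and 37.5%, against 24.3%, 22.8% and 24.4%. The smaller share of falls held in every fit that left out 1 array: the highest was 15.6% of members, against 26.1% of the other genes, without TET replicate 3. The count that fell was 8 without saline replicate 2, 9 without saline replicate 3, 10 without TMT replicate 1 and 8 without TMT replicate 3. The median difference stayed between 0.19 and 0.26, and its distance from the median of the other genes between 0.18 and 0.27, over the fits that left out 1 array.

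**Figure D1:**
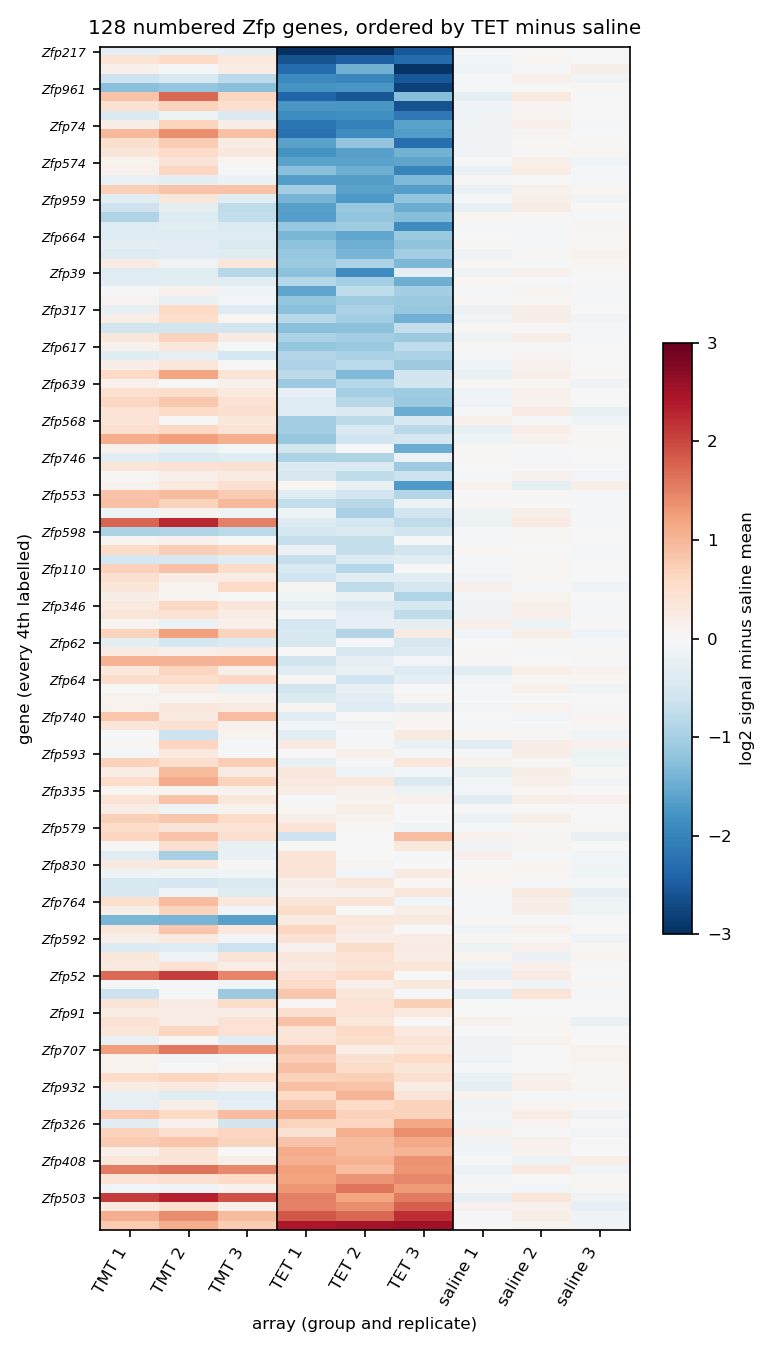
Each row is 1 of the 128 members and each column 1 array, in the order TMT, TET, saline; colour gives the log2 signal minus the member's saline mean, and rows are ordered by the difference of TET from saline. TMT columns hold more shades above the saline mean than below it, and TET columns hold members far to either side.

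Among the rises under TMT, Zfp503, encoding a corepressor of the NET family, had 9.94, 10.17 and 9.76 on the TMT arrays and 7.58, 8.20 and 7.74 on the saline arrays. The groups did not overlap, and the lowest TMT array lay over 1 unit above the highest saline array. The rise was 4.34-fold (log2 fold change 2.12, SE 0.18, adjusted p = 9.9e-06). Another Zfp503 probe set also rose, by 1.59.

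Zfp467, whose product promotes adipocyte formation in mouse marrow stroma, had 9.24, 9.76 and 9.02 under TMT and 7.32, 7.75 and 7.43 in saline. No TMT array reached down to the saline range, and the rise was 3.57-fold (1.84, SE 0.19, adjusted p = 4.7e-05). Zfp52 had 9.01, 9.39 and 8.78 under TMT and 7.05, 7.56 and 7.31 in saline. It rose 3.36-fold (1.75, SE 0.20, adjusted p = 8.4e-05), and its other probe set gave 1.55. Zfp652, a partner of the corepressor CBFA2T3 in human cells, had 8.83, 8.94 and 8.74 under TMT and 7.13, 7.60 and 7.18 in saline. It rose 2.90-fold (1.53, SE 0.15, adjusted p = 2.6e-05). In each of these 3 genes replicate 2 was the highest array of its group, in TMT and in saline.

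The other leading rises under TMT were 1.38 for Zfp707, 1.14 for Zfp367, 1.13 for Zfp991 and 1.08 for Zfp839, with SE from 0.15 to 0.17. Zfp707 rests on such a probe set, and with these left out its difference was 0.13 (adjusted p = 0.39). Zfp839 had 9.81, 10.25 and 9.72 under TMT and 8.75, 8.94 and 8.86 in saline, with no overlap.

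Among the falls under TMT, Zfp949 had 6.74, 6.71 and 6.48 on the TMT arrays and 8.11, 8.12 and 8.08 on the saline arrays. The groups lay more than 1 unit apart, and the fall was 2.76-fold (−1.46, SE 0.09, adjusted p = 1.6e-06). The other Zfp949 probe set differed by −1.10. Zfp961 had 6.13, 6.21 and 6.11 under TMT and 7.32, 7.36 and 7.44 in saline, a fall of 2.34-fold (−1.23, SE 0.23, adjusted p = 0.0025). Its other probe set gave 0.15, so the Zfp961 fall rests on 1 probe set.

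Zfp598, a ubiquitin ligase that marks collided ribosomes in human cells, had 9.03, 9.10 and 9.18 under TMT and 9.97, 10.02 and 9.99 in saline. The arrays of each group lay within 0.2 of one another, and the fall was 1.85-fold (−0.89, SE 0.08, adjusted p = 2.1e-05). The remaining falls were smaller: −0.68 for Zfp945, −0.62 for Zfp160, −0.55 for both Zfp868 and Zfp213, −0.47 for Zfp1, −0.46 for Zfp407, −0.45 for Zfp628, −0.41 for Zfp62 and −0.39 for Zfp664. Of these 9, Zfp213 and Zfp628 kept their calls in every setting run for them other than the requirement of a 1.5-fold change. Zfp628 has no value without probe sets marked for related transcripts, and the other probe set of Zfp213 gave −0.07 under TMT. The calls of Zfp62 and Zfp664 were lost without any 1 of the TMT or saline arrays. That of Zfp160 was lost without TMT replicate 1 or 3 or saline replicate 1 or 2, that of Zfp868 without TMT replicate 1 or 3 or saline replicate 2 or 3, and that of Zfp1 without TMT replicate 3 or saline replicate 2 or 3. Without probe sets marked for related transcripts Zfp945 gave 0.12 (adjusted p = 0.77), and the other probe set of Zfp160 gave 0.47.

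**Figure D2:**
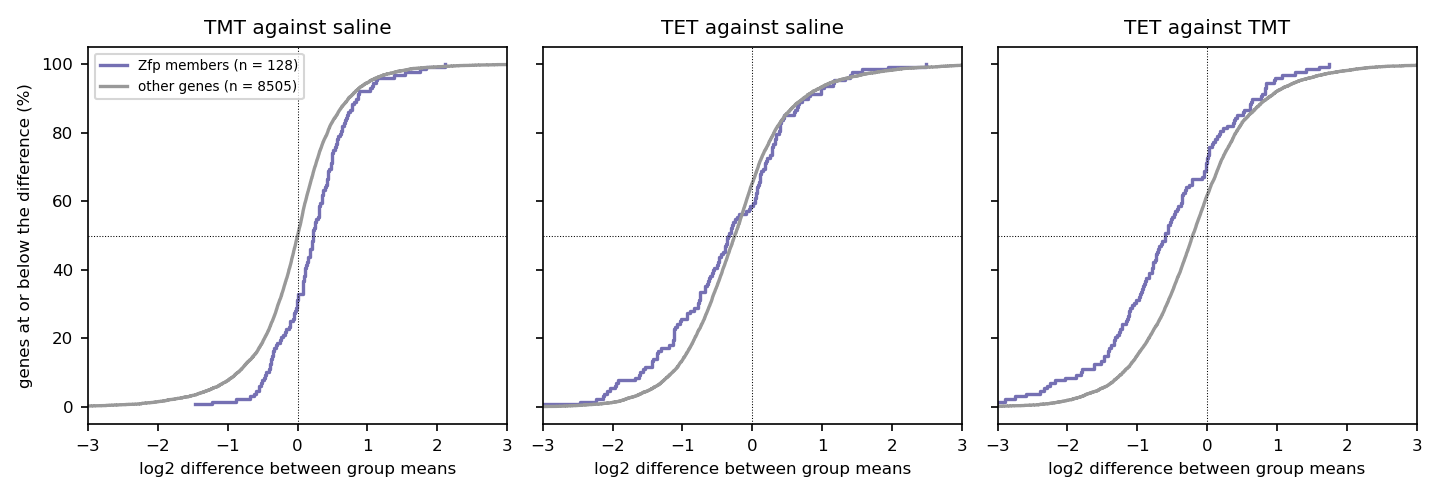
Cumulative share of genes (vertical axis) by log2 fold change (horizontal axis) in the 3 comparisons, for the 128 members and the 8505 other genes above the same saline minimum. Under TMT the member curve lies to the right of the other genes (medians 0.22 and 0.00), and for TET against TMT it lies to the left (medians −0.60 and −0.21).

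TET against saline asked the same of the other organotin, with the same 3 saline arrays, so the values of TMT and TET against saline are set side by side and not correlated. After TET more members fell than rose: 26 rose, 57 fell and 45 did not pass, or 20.3% higher and 44.5% lower. The other genes above the minimum gave nearly the same shares, 20.1% higher and 44.7% lower, while over all genes 27.4% were higher and 23.4% lower. Reweighted for brightness, the other genes gave 23.3% higher and 42.1% lower. The median difference was −0.34 over the members (quartiles −1.02 and 0.28) and −0.25 over the other genes. Changes of 2-fold or more comprised 9 rises and 33 falls (7.03% and 25.8% of members, against 6.596% and 13.7% of the other genes above the minimum). In 82 of the 83 members that passed (98.8%, against 98.7% of the other genes that passed) the TET arrays lay outside the saline range, the exception being Zfp560.

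The split of these calls moves with the scaling. With cyclic loess between arrays 39 members rose and 42 fell (48.1% of calls higher, against 31.3% as deposited), and with quantile normalization applied again 33 rose and 46 fell (41.8%). The other genes moved with them, to 28.1% higher and 31.4% lower under cyclic loess.

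The largest fall under TET was that of Zfp217, encoding a subunit of corepressor complexes known in human breast cancer as an oncogene product. Its arrays read 8.0, 7.90 and 8.64 under TET and 11.17, 11.19 and 11.18 in saline. All TET arrays lay over 2 units below every saline array, and the fall was 8.02-fold (−3.0, SE 0.16, adjusted p = 3.3e-07). The TMT arrays read 10.91, 10.97 and 10.91, and TMT against saline did not pass (−0.25, adjusted p = 0.34).

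Zfp871 had 7.63, 7.79 and 7.94 under TET and 10.16, 10.31 and 10.27 in saline. It fell 5.52-fold (−2.46, SE 0.11, adjusted p = 9.2e-08), and its other probe sets differed by −1.17 and −2.70. Zfp445, whose KRAB protein protects genomic imprints in mouse and human, had 7.33, 7.50 and 7.72 under TET and 9.02, 9.16 and 9.21 in saline. It fell 3.06-fold (−1.62, SE 0.12, adjusted p = 2.5e-06), with −1.10 and −1.58 at its other probe sets. Neither gene had a TET array within the saline range.

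The next falls under TET had log2 fold changes of −2.23 for Zfp866, −2.14 for Zfp160, −2.12 for Zfp961, −2.08 for Zfp266 and −2.03 for Zfp770. They were −1.96 for Zfp111, −1.95 for Zfp74, −1.92 for Zfp839 and −1.68 for Zfp719. These falls have SE from 0.12 to 0.36 and adjusted p from 6.5e-07 to 0.00079. The other probe sets of Zfp770 (−0.96) and Zfp719 (−1.87) also gave falls. Those of Zfp160 (0.88) and Zfp961 (0.38) gave the opposite sign, and without probe sets marked for related transcripts Zfp111 gave −0.34 (adjusted p = 0.43), while a dimmer unmarked probe set of Zfp111 gave −1.41.

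The largest rise under TET was that of Zfp655, a KRAB zinc finger protein known to bind the signalling protein Vav. It had 11.32, 11.41 and 11.43 under TET and 8.89, 9.0 and 8.80 in saline. The TET arrays lay within 0.2 of one another and over 2 units above saline, a rise of 5.61-fold (2.49, SE 0.11, adjusted p = 7e-08). Its other probe sets gave 1.19 and 3.07. Zfp655 also rose under TMT (9.69, 9.99 and 9.65; 0.88, SE 0.11, adjusted p = 0.00016), though 1 of its other probe sets gave −0.26 there.

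Zfp367 had 8.95, 8.81 and 9.29 under TET and 7.01, 7.25 and 6.98 in saline, and rose 3.82-fold (1.94, SE 0.15, adjusted p = 4e-06). Zfp451, a SUMO ligase in human cells, had 8.61, 8.52 and 8.90 under TET and 7.23, 7.24 and 6.86 in saline, and rose 2.96-fold (1.57, SE 0.14, adjusted p = 1.2e-05). Neither gene had overlapping groups. The next rises were 1.42 for Zfp503, 1.40 for Zfp703, 1.32 for Zfp715, 1.16 for Zfp652 and 1.15 for Zfp408. Other probe sets gave 3.14 for Zfp715, 0.56 and 1.04 for Zfp703 and 1.91 for Zfp367, but 0.05 and 0.02 for Zfp652.

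**Figure D3:**
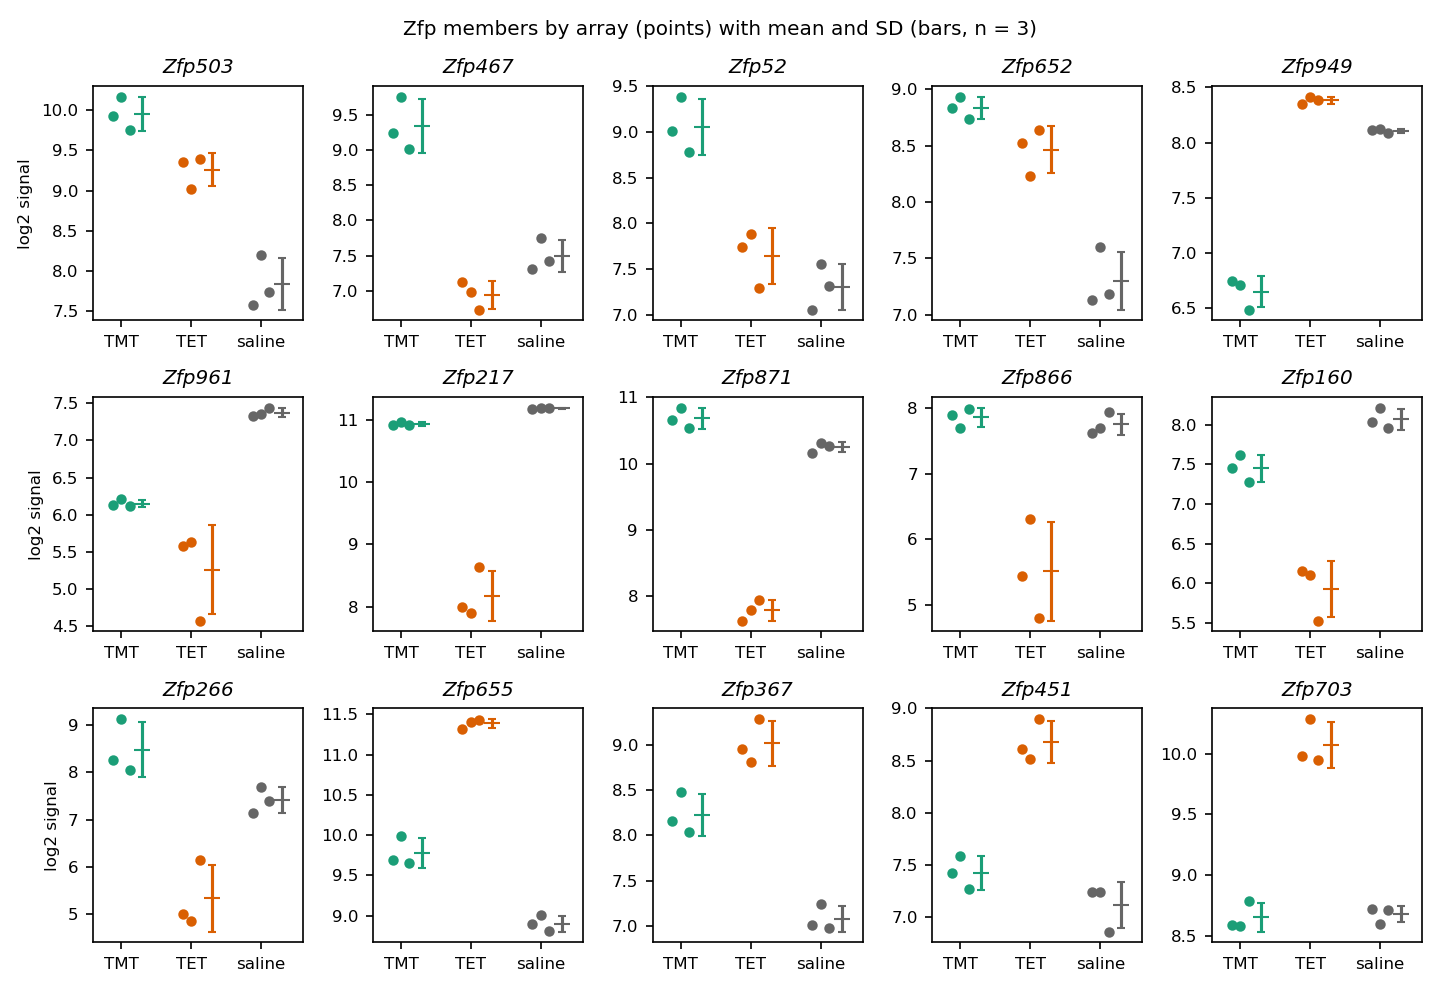
Log2 signal of leading members on each array, with points for the 3 arrays of TMT, TET and saline and bars for the mean and SD of each group; each panel has its own vertical range. On the probe sets shown, Zfp217 and Zfp871 are low only in the TET arrays, and Zfp949 is low only in the TMT arrays. The other Zfp949 probe set, not shown, gave −1.10 under TMT and −1.09 under TET against saline.

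TET against TMT compares the organotins directly, at their different doses. Most members were lower under TET: 21 rose, 72 fell and 35 did not pass, or 16.4% higher and 56.3% lower. The other genes above the minimum gave 23.5% higher and 42.8% lower, and all genes 28.1% higher and 23.7% lower. The median difference was −0.60 over the members and −0.21 over the other genes, or −0.23 with these reweighted for brightness. Changes of 2-fold or more comprised 5 rises and 40 falls (3.91% and 31.3% of members, against 7.91% and 15.0% of the other genes above the minimum). In 90 of the 93 members that passed (96.8%, against 96.7% of the other genes that passed) the groups did not overlap, the exceptions being Zfp438, Zfp560 and Zfp579.

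Zfp266 had 5.01, 4.85 and 6.15 under TET and 8.26, 9.14 and 8.05 under TMT. The arrays varied by over 1 unit within each group, yet the groups lay far apart and the difference was −3.15 (SE 0.36, adjusted p = 4.5e-05). Zfp839 had 6.61, 6.99 and 7.17 under TET and 9.81, 10.25 and 9.72 under TMT, with a difference of −3.0 (SE 0.17, adjusted p = 3.8e-07). Zfp839 passed on opposite sides of saline, falling under TET (−1.92) and rising under TMT (1.08).

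The other leading falls were −2.90 for Zfp871, −2.76 for Zfp217, −2.59 for Zfp770 and −2.39 for Zfp467. Zfp467 had 7.12, 6.98 and 6.73 under TET, against 9.24, 9.76 and 9.02 under TMT. The saline arrays of Zfp467 lay between the organotin groups on the chosen probe set, which is marked for related transcripts. Its other probe sets gave −1.34 and 0.15 for TET against saline.

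Zfp949 led the rises, with 8.35, 8.42 and 8.38 under TET and 6.74, 6.71 and 6.48 under TMT. The groups were well apart, with a difference of 1.74 (SE 0.09, adjusted p = 2.4e-07), but the other Zfp949 probe set gave 0.01, having fallen under both compounds. Zfp655 was 1.61 higher under TET, Zfp703 1.42, Zfp451 1.26, Zfp326 1.07 and Zfp704 0.96. Of these, the other probe sets of Zfp655 gave 1.45 and 2.49, that of Zfp704 gave −0.06, and those of Zfp451 gave −0.23, 1.41, −0.40 and −0.16.

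**Figure D4:**
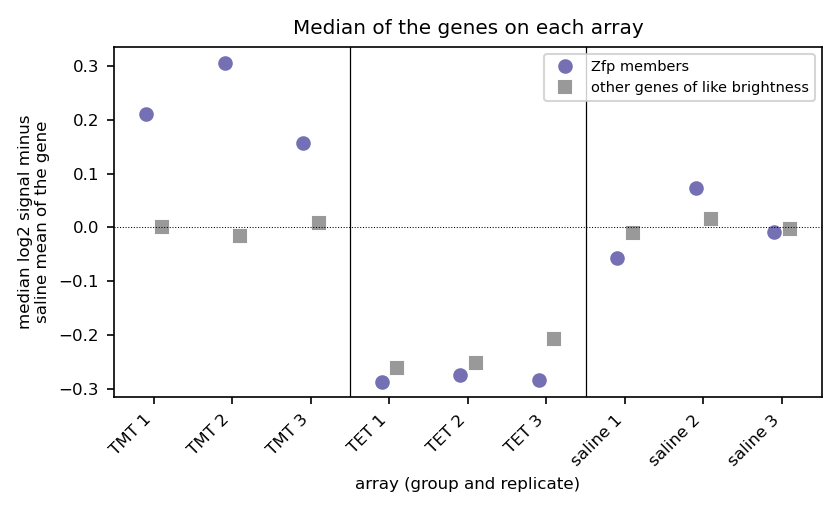
Median over genes of the log2 signal minus the gene's saline mean, for the members and the other genes above the same minimum, 1 point per array. Member medians are 0.21, 0.31 and 0.16 on the TMT arrays, −0.29, −0.27 and −0.28 on the TET arrays and −0.06, 0.07 and −0.01 on the saline arrays.

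By array, the member median minus the saline mean was 0.21, 0.31 and 0.16 under TMT, −0.29, −0.27 and −0.28 under TET and −0.06, 0.07 and −0.01 in saline. The other genes stood at 0.00, −0.02 and 0.01 under TMT and −0.26, −0.25 and −0.21 under TET. All 3 TMT arrays thus had members above the other genes, and on the TET arrays the members and the other genes lay within 0.08 of each other. Replicate 2 was the highest array for the members in TMT and in saline. The median SD of a member within a group was 0.152 under TMT, 0.252 under TET and 0.109 in saline, against 0.132, 0.168 and 0.0757 for the other genes.

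**Figure D5:**
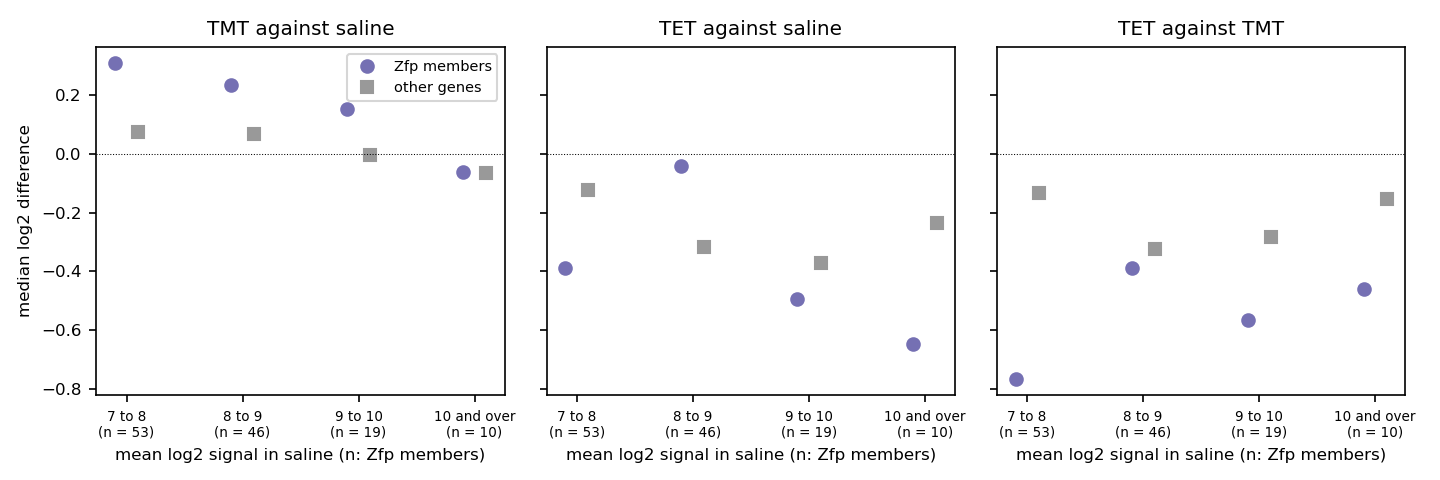
Median log2 fold change of members (circles) and other genes (squares) by saline brightness, in bins from 7 to 8, 8 to 9, 9 to 10 and 10 or more, for the 3 comparisons. The members' medians under TMT decline from 0.31 in the dimmest bin to −0.06 in the brightest, which holds 10 members.

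The distance between members and other genes varied with saline brightness. Under TMT the member medians were 0.31, 0.23, 0.15 and −0.06 from the dimmest to the brightest bin (53, 46, 19 and 10 members), beside 0.07, 0.07, −0.00 and −0.07 for the other genes. Under TET they were −0.39, −0.04, −0.49 and −0.65, beside −0.12, −0.32, −0.37 and −0.23. For TET against TMT they were −0.77, −0.39, −0.57 and −0.46, beside −0.13, −0.32, −0.28 and −0.15. The 2 brightest bins hold fewer than 20 members each. Under TMT the dimmest bin held the larger excess of rises, with 21 of 53 members (39.6%) against 410 of 1640 other genes. From 8 to 9 the shares were 26.1% and 27.6%, from 9 to 10 they were 21.1% and 24.1%, and from 10 up they were 20.0% and 17.7%. The share of falls under TMT was smaller for members than for other genes in all 4 bins, from 10.0 to 13.0% against 18.7 to 29.6%.

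A choice of members without the saline arrays changed the TET picture. With a mean of at least 7 over the 6 organotin arrays there were 130 members. Of these 50 rose and 10 fell under TMT (38.5% and 7.69%, against 24.9% and 21.7% of the other genes), with a median of 0.30 against 0.04. Under TET 37 rose and 43 fell (28.5% and 33.1%, against 24.4% and 40.7%), with a median of −0.02 against −0.17 for the other genes. These members were chosen on organotin arrays that also stand in the comparisons with saline. Any gene above this minimum through high organotin values by accident leans towards a rise. For TET against TMT the count was 25 higher and 64 lower (19.2% and 49.2%, against 25.5% and 41.7%), with a median of −0.39 against −0.18.

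The role lists hold 4 to 12 members each, and their counts stand beside the other genes above the minimum, of which 22.4% rose and 24.4% fell under TMT (median 0.00) and 20.1% rose and 44.7% fell under TET (median −0.25). Nothing is read from a share of so few genes. The proteins that act on RNA and ribosomes are the largest list, with 12 members of 14 genes. After TMT 2 of the 12 rose and 1 fell (median 0.07), and after TET 4 rose and 5 fell (median −0.16). Zfp622, a factor of large ribosomal subunit assembly in yeast and human, had 13.51, 13.33 and 13.42 under TET and 12.32, 12.50 and 12.39 in saline. It rose 2.03-fold (1.02, SE 0.11, adjusted p = 3.9e-05), with no overlap. Zfp326, a splicing and elongation factor in human cells, rose by 0.83 under TET (SE 0.18, adjusted p = 0.004), and Zfp330, a nucleolar protein, rose by 0.71 (SE 0.13, adjusted p = 0.0014). Zfp598 fell under TET as well (−0.51, adjusted p = 0.00055).

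Zfp106 was 0.34 higher under TET on its chosen probe set (adjusted p = 0.029), while its 4 other probe sets gave −0.50, −1.07, −1.78 and −0.38, and the probe set brightest in saline gave −1.78. Zfp346, a double-stranded RNA binding protein, had adjusted p values of 0.027 under TMT (0.41) and 0.023 under TET (−0.38), the first lost without saline replicate 1 or 3 or TMT replicate 2 and the second without saline replicate 2 or TET replicate 2 or 3. Zfp207, a spindle assembly protein, gave −0.36 under TET (adjusted p = 0.035). That call was lost without saline replicate 1 or 3, TMT replicate 1 or TET replicate 1. The other probe sets of Zfp207 gave −0.29, −1.51, 0.05, −1.65 and −0.15. Zfp638, which silences unintegrated retroviral DNA in human cells, gave −0.49 under TET (adjusted p = 0.023), and its other probe sets gave −1.15, −0.94 and −0.71. The Zfp638 call on the chosen probe set was lost without any 1 saline array or TET replicate 1 or 2. Zfp318, which directs IgD splicing in B cells, did not pass under TMT (0.29) or TET (−0.61) on its chosen probe set. Its other probe sets gave 0.03, −0.70, −0.54 and −0.85 under TET. Zfp593 and Zfp830 did not pass in any comparison on their chosen probe sets, with differences between −0.05 and 0.20. The other probe sets of Zfp830 gave −0.99, 0.01 and −0.90 under TET.

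Of the ubiquitin, SUMO and signalling list, 5 of 6 genes are members, of which 1 rose and 1 fell under TMT (median 0.21) and 3 rose (Zfp91, Zfp451 and Zfp622) and 1 fell (Zfp598) under TET (median 0.40). Zfp91, a ubiquitin ligase of noncanonical NF-kB signalling, had 12.96, 12.92 and 12.79 under TET and 12.50, 12.51 and 12.48 in saline. These do not overlap, but the rise (0.40, adjusted p = 0.0026) is that of 1 probe set, and the 3 others gave −0.43, −0.48 and −1.76. Zfp110, which binds the p75 neurotrophin receptor, rose under TMT (0.70, adjusted p = 0.015), a call lost without saline replicate 1 or TMT replicate 2. It did not pass under TET (−0.45, adjusted p = 0.064), and TET against TMT was −1.15 (adjusted p = 0.00045). The other probe sets of Zfp110, both marked for related transcripts, gave 1.28 and 1.19 under TMT and −1.19 and −0.83 under TET.

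Of the promoter and chromatin-loop factors, 8 of 10 listed genes are members, 2 of which rose and 1 fell under TMT (median 0.08), against 2 and 3 under TET (median −0.11). Zfp263 had 10.69, 10.69 and 11.03 under TET and 12.39, 12.35 and 12.29 in saline. It fell 2.91-fold (−1.54, SE 0.11, adjusted p = 1.5e-06) with no overlap, and its other probe set gave −3.0. Zfp281, which binds GC-rich promoters, fell under TMT (−0.38, adjusted p = 0.013, a call lost without saline replicate 2 or TMT replicate 3) and under TET (−0.94, adjusted p = 2.4e-05), and its other probe set gave −0.62 and −1.04. Zfp24 rose under TMT (0.62, adjusted p = 0.021) and fell under TET (−0.78, adjusted p = 0.0039), and the TMT call was lost without saline replicate 1 or 3 or TMT replicate 1 or 2. Zfp64 rose under TMT (0.56), but not without saline replicate 1 (adjusted p = 0.053). Zfp219 (0.60) and Zfp131 (0.45) rose under TET, and the chosen probe sets of Zfp148 and Zfp335 did not pass in any comparison. The other probe sets of Zfp148 gave 0.35, −1.35, −0.76, 0.24 and −0.68 under TET.

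Of the corepressor partners, 6 of 11 listed genes are members and the other 5 lie below the saline minimum. After TMT Zfp652 alone of these 6 passed, as a rise (median of the list 0.05). After TET Zfp652, Zfp703 and Zfp704 rose and Zfp217 fell (median 0.53). Zfp703, of the same NET family as Zfp503, had 9.98, 10.29 and 9.95 under TET and 8.72, 8.60 and 8.71 in saline, and rose 2.63-fold (1.40, SE 0.11, adjusted p = 4.6e-06). Its TMT arrays (8.59, 8.58 and 8.79) overlapped saline. Zfp516 gave 0.39 under TMT (adjusted p = 0.089) and 0.39 under TET (adjusted p = 0.055). The chosen probe set of Zfp592 did not pass, and its other probe sets gave −0.05 and −1.82 under TET.

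Of the KRAB proteins known to silence retroelements or protect imprints, 4 of 7 are members, of which 2 rose under TMT (median 0.34) and 1 rose and 2 fell under TET (median −0.35). Zfp809, which silences murine leukaemia virus DNA in embryonic cells, had 8.62, 9.18 and 8.72 under TMT and 7.98, 8.22 and 7.99 in saline. The groups were apart and the rise was 0.78 (SE 0.21, adjusted p = 0.017), lost without saline replicate 1, saline replicate 3 or TMT replicate 2 (adjusted p 0.061 to 0.063). Zfp445 also rose under TMT (0.42, adjusted p = 0.024), a call lost without saline replicate 1 or 2 or TMT replicate 1 or 2. Zfp568, a repressor of a placental Igf2 transcript, fell under TET on its chosen probe set (−0.76, adjusted p = 0.0028), but its other probe set gave −0.05. Zfp932, which restrains endogenous retroviruses, rose under TET (0.66, adjusted p = 0.013), but not without saline replicate 1 (adjusted p = 0.055).

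Of 31 listed genes of the KRAB corepressor machinery, 26 were measured. After TMT 7 rose and 4 fell (26.9% and 15.4%, against 22.4% and 24.4% of other genes above the minimum and 14.3% and 13.4% of all genes). After TET 5 rose and 11 fell (19.2% and 42.3%), close to the 20.1% and 44.7% of other genes above the minimum. TET against TMT gave 4 higher and 12 lower (15.4% and 46.2%, against 23.5% and 42.8%). Trim28 itself did not pass under TMT (0.12, adjusted p = 0.39) or TET (0.02, adjusted p = 0.84). Setdb1 rose under TMT (0.55) and fell under TET (−0.29, adjusted p = 0.028). Atf7ip, the partner that stabilises SETDB1, rose 2.49-fold under TMT (1.31, adjusted p = 4.9e-06) and 8.12-fold under TET (3.02, adjusted p = 1.1e-08). Cbx5, encoding a heterochromatin protein, fell 4.34-fold under TET (−2.12, adjusted p = 4.3e-07), and Tasor, of the HUSH silencing complex, fell 2.63-fold (−1.39, adjusted p = 0.0032). Under TMT Cbx5 gave −0.59 (adjusted p = 0.0042) and Tasor gave 0.44 (adjusted p = 0.36). Of the DNA methyltransferases, Dnmt3a rose 6.11-fold under TET (2.61) and by 0.28 under TMT (adjusted p = 0.021). Dnmt1 rose 2.08-fold under TMT (1.06, adjusted p = 0.00052) and by 1.00 under TET (adjusted p = 0.00044). Suv39h2, a histone methyltransferase, rose by 0.86 and Hdac2, a histone deacetylase, fell by 0.72 on the log2 scale under TMT. Under TET Suv39h2 gave 0.16 (adjusted p = 0.26) and Hdac2 gave −1.35 (adjusted p = 5.6e-05).

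Probe sets that the rule did not choose give a further readout of the same genes. Of 79 members with other probe sets, 35 passed under TMT, and 54 of their 61 other probe sets differed in the same direction as the chosen one. Of these 54, 24 passed, and 1 of the 7 opposite ones passed. Under TET 72 of 94 went the same way, of which 48 passed, and 10 of the 22 opposite ones passed. For TET against TMT 82 of 102 went the same way, of which 61 passed, and 6 of the 20 opposite ones passed. Here the adjustment was over all probe sets naming 1 gene. The same shares were not computed for the other genes.

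The members cluster in the genome. Chromosome 7 holds 28 members (21.9%, against 7.84% of all genes), chromosome 17 holds 15 (11.7%, against 4.63%) and chromosome 8 holds 13 (10.2%, against 5.17%). Of the members, 23 lie next to another member in 11 groups. Neighbours could be alike or unlike: Zfp87 and Zfp748 differed by −0.75 and −0.76 under TET, whereas Zfp871 fell (−2.46) and its neighbour Zfp811 rose (0.99, adjusted p = 4e-05).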

How the data were processed

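The table held log2 signals of 45037 probe sets on 9 Affymetrix mouse genome arrays. Per the submitters' processing notes, the authors made these log2 values with RMA and affy. Their versions, and whether all arrays were processed together, are not stated in any source used. The base was taken from the range of the values. Per the labels' protocols, RNA was amplified with a Nugen kit and labelled with biotin. The labels call the replicates biological but do not name animals, so p-values measure only the spread among these cultures, which may be technical. Precision is limited by the number of arrays, and 3 arrays against 3 cannot give an exact permutation p below 0.1.

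The values were used as deposited. Probe sets naming 1 gene in the platform annotation (34945) were reduced to the brightest per gene, and 932 naming several and 9160 naming none were left out. limma 3.58.1 in R 4.3.3 fitted 1 mean per group to all 9 arrays (6 residual degrees of freedom, prior 3.99), with two-sided p-values adjusted over 18193 genes. The script was tested on simulated data. Same-numbered arrays of the groups compared did not all correlate above 0.1, so the replicate numbers were not taken as pairs and no block was used.

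Members and lists were chosen with earlier results of these data known, and so have no independent support. The text names, for each comparison with saline, the 12 largest falls and 8 largest rises among members that passed with groups that did not overlap, and for TET against TMT 6 of each, besides all members in the role lists, the 3 genes on either side of the minimum and up to 4 corepressor genes per comparison. Trim28, Setdb1, Zfp811, Zfp87 and Zfp748 were chosen after their values were seen. Zfp871 stands in the RNA list, but no role is given. Zfp143, Zfp191, Zfp385, Zfp706 and Zfp992 were not analysed here. Typing members by protein domains was not run. Alternatives covered left-out arrays, scaling, probe set choice, array weights, moderation, 6-array fits, the block, other minimums and a 1.5-fold requirement.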

Additional observations from a re-analysis of the deposited data

How the results depend on the processing

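Of 312 summary values (shares higher and lower, medians and offsets from the other genes, over 26 settings), 267 stayed within 1.5 times (shares) or 1 SD between arrays of a group (0.0576 for medians, 0.0616 for offsets) of the main value, 42 moved beyond it and 3 changed sign. Part of the 267 could not move. Medians and offsets stay fixed where only the moderation, block, genes tested or fold rule changed, and in the 6-array fits. They also stay fixed where the array left out belongs to neither group compared. Centring the arrays leaves the offset fixed. Signals near the low end can understate a change, and no detection call was used. The share of members higher under TMT was 17.2 to 37.5% without single arrays (other genes above the minimum 17.7% and 24.4% in those fits), 49.2% with array weights (34.5%) and 20.3% with at least a 1.5-fold change (13.6%). The share lower was 6.25 to 15.6% without single arrays, 22.7% with array weights, 3.91% with a 1.5-fold change, 7.69% with the minimum set on the organotin arrays and 5.92% with no minimum. The TMT median was 0.14 without probe sets marked for related transcripts and 0.30 with the minimum on 9 arrays or on the organotin arrays.

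Under TET, 30.5% of members rose with cyclic loess. The TET median was −0.21 with quantile normalization, −0.42 with centred arrays, −0.14 with cyclic loess, −0.27 with a minimum of 6, −0.25 with 8, −0.094 with 9 arrays, −0.017 with organotin arrays and −0.080 with none. Its offset from the other genes, −0.09, was −0.10 to −0.030 without single arrays (−0.030 without TET replicate 3, −0.057 without TET replicate 2), −0.00090 without probe sets marked for related transcripts, −0.18 with no minimum, and turned to 0.028 with a minimum of 8, 0.11 with 9 arrays and 0.16 with organotin arrays; the cause was not tested.

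For TET against TMT the median was −0.64 to −0.53 without single arrays, −0.49 with quantile normalization, −0.44 with cyclic loess, −0.53 without related-transcript probe sets, and −0.42, −0.46, −0.39 and −0.37 with a minimum of 8, on 9 arrays, on organotin arrays and none. The offset was −0.44 to −0.33 without single arrays, −0.32 without those probe sets, and −0.49, −0.20, −0.27, −0.21 and −0.48 with a minimum of 6, of 8, on 9 arrays, on organotin arrays and none.

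Of 129 calls for named members, 85 passed in every setting run for them other than the 1.5-fold requirement and 44 failed in at least 1; the 4 of Zfp628 and Zfp809 lack a value without related-transcript probe sets. With the mean over probe sets the sign turned under TET for Zfp106 (−0.68), Zfp407 (0.33), Zfp91 (−0.57) and Zfp949 (−0.41), and for TET against TMT for Zfp106 (−0.39). With the probe set brightest in saline, Zfp106 gave −1.78 under TET and −1.40 for TET against TMT, and Zfp451 −0.23 for TET against TMT. Without related-transcript probe sets, Zfp945 gave 0.12 under TMT, Zfp467 0.15 under TET and Zfp707 0.029 for TET against TMT.

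The replicate number as a block (replicate block) gave 27.3% higher and 11.7% lower under TMT, 20.3% and 45.3% under TET and 16.4% and 56.3% for TET against TMT. It ended the TMT call of Zfp62 (adjusted p = 0.055). Deviations of same-numbered arrays correlated at 0.161, 0.308 and 0.0201 between TMT and saline, −0.125, −0.0636 and −0.0355 between TET and saline, and −0.0955, −0.148 and 0.145 between TET and TMT, so the numbers were not taken as pairs. TMT and saline arrays with the same number correlated above 0 in all 3 cases, but TMT replicate 3 correlated best with saline replicate 1 (0.262).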

Other observations

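The 176 numbered Zfp genes below the saline minimum gave other counts than the rest of the dim genes. Under TMT 50 rose and 3 fell (28.4% and 1.70%), against 6.54% higher and 3.75% lower among 9384 other genes below the minimum. Under TET 38 rose and 42 fell (21.6% and 23.9%), against 34.2% and 3.85%. The other dim genes are dimmer as a group and include genes near the low end of the signal, which can hardly be called lower. Reweighted to the spread of the Zfp genes over saline levels under 5, 5 to 6 and 6 to 7, bins chosen after the values were seen, they gave 8.77% higher and 5.33% lower under TMT and 36.9% and 5.69% under TET. These genes were selected by a low saline level, which leans towards rises against saline in all genes below the minimum.

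Other zinc finger families with the same saline minimum stand beside the other genes above it, of which 22.4% rose and 24.4% fell under TMT and 20.1% rose and 44.7% fell under TET. Of 32 Zbtb genes, which pair fingers with a BTB domain, 12 rose and 4 fell under TMT (37.5% and 12.5%), and 10 rose and 14 fell under TET (31.3% and 43.8%, the falls near the background). Of 14 Zc3h genes, named for the CCCH finger of RNA-binding proteins, 1 rose and 7 fell under TMT (7.14% and 50.0%), and 1 rose and 5 fell under TET (7.14% and 35.7%). Of 17 Zdhhc genes, palmitoyl transferases, 4 rose and 3 fell under TMT (23.5% and 17.6%), and 1 rose and 12 fell under TET (5.88% and 70.6%). The 3 Zscan genes fell under TET, too few for a share. Zfp36, the mRNA decay factor outside the rule, fell under TMT (−0.56, adjusted p = 0.0024) and TET (−0.45, adjusted p = 0.0049).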
